A study of Mus musculus with 34 samples.

Results

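Transcript levels of 8 genes of the mouse MHC class II system were followed in monocytes and macrophages of 2 transplanted tumors, in spleen monocytes of the same kind of mice and in cultured bone marrow monocytes. The genes were taken from the table by their Entrez identifiers. They are H2-Aa (14960) and H2-Ab1 (14961), the alpha and beta chains of I-A; H2-Eb1 (14969), the beta chain of I-E; Cd74 (16149), the invariant chain; Ciita (12265), the class II transactivator; and H2-DMa (14998), H2-DMb1 (14999) and H2-DMb2 (15000), chains of H2-DM. They are 8 of the 24475 genes in the table, and all 8 passed the filter on low counts in both the mouse and the cultured libraries. The rule that names them uses no measured value, but it was set with earlier results of these data known.

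MHC class II molecules are surface receptors that show peptides from engulfed protein to CD4+ T cells. The I-A and I-E chains are assembled on the invariant chain, which blocks the groove and guides the complex to the endosome, where cathepsins trim it and H2-DM exchanges the last fragment for a peptide. CIITA does not bind DNA itself: it joins RFX, NF-Y and CREB proteins already seated on the class II promoters, and it is inducible by interferon gamma. Dendritic cells and B cells carry the system constitutively, whereas monocytes and macrophages are known to gain or lose it with their surroundings.

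The mice were labelled C57/Bl6, and bore tumors of MC38, a colon adenocarcinoma line, or LLC, a Lewis lung carcinoma line. There were 9 groups. Macrophages (TuMac) came from MC38 tumors and from LLC tumors. TuMon1 were monocytes of MC38 tumors sorted as Ly6C+ CD88+ Sca1+, and TuMon2 were monocytes of LLC tumors sorted as Ly6C+ CD88+ Sca1-. Spleen monocytes were sorted as Ly6C+ from mice with either tumor. Each of these 6 groups had 4 libraries. Bone marrow Ly6C+ monocytes were cultured with MC38 supernatant (labelled Sca1+, 3 libraries), with LLC supernatant (labelled Sca1-, 3 libraries) or without either as control (4 libraries). The labels give neither ages nor whether libraries of 1 group came from separate animals or cultures, so p-values measure the spread between these libraries, which may be technical. Sca1 phenotype and tumor line coincide in every group that was sorted on Sca1, and their parts in a difference cannot be told apart.

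All 8 genes are annotated as protein coding on GRCm38. Of these, 6 are neighbours on chromosome 17: H2-DMa at 34119693 to 34139101, H2-DMb2 at 34143229 to 34151553, H2-DMb1 at 34153191 to 34160229, H2-Ab1 at 34263227 to 34269418, H2-Aa at 34282744 to 34287823 and H2-Eb1 at 34305867 to 34316674. Ciita lies on chromosome 16 at 10480014 to 10531064. The promoters are shown because CIITA acts through a spaced pair of boxes upstream of class II genes. Below are bases 130 to 31 before the start of 4 genes, from the RefSeq table on GRCm38.p6, at chr17:34287854-34287953 (minus strand, H2-Aa), chr17:34305737-34305836 (plus, H2-Eb1), chr17:34153061-34153160 (plus, H2-DMb1) and chr17:34145119-34145218 (plus, H2-DMb2). The RefSeq start used for H2-DMb2 lies inside the gene span given above, which begins upstream of it. Capitals mark GCAAC, a core of the X box that RFX binds, and ATTGG or its reverse complement CCAAT, a core of the Y box that NF-Y binds.
H2-Aa: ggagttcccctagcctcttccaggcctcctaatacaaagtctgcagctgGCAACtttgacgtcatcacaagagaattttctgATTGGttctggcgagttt
H2-Eb1: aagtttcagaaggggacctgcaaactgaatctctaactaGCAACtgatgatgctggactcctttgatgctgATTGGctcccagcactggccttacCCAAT
H2-DMb1: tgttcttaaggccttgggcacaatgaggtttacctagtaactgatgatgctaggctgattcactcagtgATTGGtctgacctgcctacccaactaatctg
H2-DMb2: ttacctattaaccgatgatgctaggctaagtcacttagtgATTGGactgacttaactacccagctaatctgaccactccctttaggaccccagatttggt

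H2-Aa and H2-Eb1 held the pair GCAAC and ATTGG on the coding strand, 28 and 27 bases apart. The window searched ran from 250 bases before the start to 50 after it, on both strands. In that window the pair, with 20 to 35 bases between its parts, was found in 0.794% of 32851 RefSeq windows, ATTGG alone in 37.4% and GCAAC alone in 35.2%. H2-DMb1 and H2-DMb2 held ATTGG without an exact GCAAC. Only exact matches were sought, so a variant X box would be missed. Upstream of ATTGG, H2-DMb1 reads gtaactgatgatgct and H2-DMb2 ttaaccgatgatgct, against GCAACtgatgatgct in H2-Eb1. Binding of RFX to these stretches was not tested. H2-DMa, with 2 listed starts, held ATTGG in one window and GCAAC in the other. Promoters of H2-Ab1, Ciita and Cd74 were not used here.

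Depth was 13047772 to 26966644 estimated counts per library. Levels are in CPM, read counts relative to library sizes scaled by the trimmed mean of M values, separately for the 24 mouse and the 10 cultured libraries, so levels are compared across these 2 sets only as magnitudes. Tests are edgeR's quasi-likelihood test over all 13200 (mouse) or 12603 (culture) genes kept, two-sided, with Benjamini-Hochberg adjustment and a threshold of 0.05. In all, 5 libraries stood apart. MC38 spleen replicates 1, 2 and 3 had summed fat cell markers of 6515, 6080.2 and 10660.3 CPM, against 21.1 CPM in replicate 4 and at most 12.3 CPM in LLC spleen. MC38 supernatant replicate 3 had 2879 CPM of fibroblast markers, against at most 2.22 CPM in the other libraries of its group, and control culture replicate 2 had 31.8 CPM. Several results that rest on these 5 are given with and without them. Ly6c2, which encodes Ly6C, averaged 13.9 CPM in LLC supernatant cells, which are labelled Ly6C+, and 1311 CPM in MC38 supernatant cells. In bulk RNA, fewer cells of a type and less RNA per cell cannot be told apart.

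By group mean, TuMon1 stood highest of all 9 groups for 7 of the 8 genes, with Ciita the exception. H2-Aa had 2762, 2332, 3245 and 3349 CPM in TuMon1 of MC38 tumors, against 573, 547, 564 and 466 CPM in TuMon2 of LLC tumors. Every TuMon1 library lay above every TuMon2 library. Its partner H2-Ab1 had 2953, 2437, 3392 and 3524 CPM in TuMon1, against 604, 567, 609.9 and 517 CPM in TuMon2. The I-E beta chain H2-Eb1 had 2197, 1885, 2616 and 2732 CPM in TuMon1, against 374, 356, 398 and 323 CPM in TuMon2. Neither gene's groups overlapped. H2-Aa was 5.43-fold higher in TuMon1 (log2 difference 2.44 ± 0.17, SE; adjusted p = 9.95e-11), H2-Ab1 5.35-fold (2.42 ± 0.17, adjusted p = 1.07e-10) and H2-Eb1 6.50-fold (2.70 ± 0.18, adjusted p = 5.04e-11).

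The invariant chain and the transactivator rose by smaller factors. Cd74 lies on chromosome 18 at 60803849 to 60812652 (GRCm38). It had 6654, 5845, 7713 and 7681 CPM in TuMon1, against 2174, 2081, 2189.6 and 1961 CPM in TuMon2, a log2 difference of 1.73 ± 0.15 (adjusted p = 2.35e-09). Ciita had 111, 92.8, 156 and 116 CPM in TuMon1, against 47.7, 40.5, 42.5 and 40.5 CPM in TuMon2, a log2 difference of 1.47 ± 0.19 (adjusted p = 1.61e-06). The groups of both genes were fully separated. Among the peptide-exchange chains, H2-DMb1 averaged 368 ± 49.3 CPM in TuMon1, against 131 ± 5.97 CPM in TuMon2 (SD, n = 4 each), and H2-DMa 261 ± 27.5 CPM in TuMon1, against 167 ± 12.2 CPM in TuMon2. Their log2 differences were 1.5 ± 0.15 (adjusted p = 1.68e-08) and 0.65 ± 0.14 (adjusted p = 0.000557). H2-DMb2, the low-abundance beta chain, ranged from 7.36 to 9.60 CPM in TuMon1, against 3.31 to 6.59 CPM in TuMon2, a log2 difference of 0.87 ± 0.24 (adjusted p = 0.00500).

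All 8 genes were called higher in TuMon1 than in TuMon2, where 26.8% of all genes tested were called higher, and their median log2 difference was 1.61, against 0.06 over all genes. Markers of other antigen-presenting cells moved in the same direction. The summed level of 12 dendritic cell markers was 61.6 to 73.7 CPM in TuMon1, against 18.7 to 22.5 CPM in TuMon2, and 7 of the 12 were called higher and 1 lower. Of these, 0 to 1 were at 0 in a TuMon1 library and 1 to 3 in a TuMon2 library. Zbtb46, a transcription factor that marks classical dendritic cells, averaged 0.439 CPM in TuMon1, against 0.0734 CPM in TuMon2, and Flt3, their growth factor receptor, 1.64 CPM in TuMon1, against 1.77 CPM in TuMon2. Summed macrophage markers (8 genes) were 9334 to 10213 CPM in TuMon1, against 4826 to 5393 CPM in TuMon2. The 10 T and NK cell markers summed to 9.82 to 11.5 CPM in TuMon1, against 1.67 to 2.72 CPM in TuMon2, and the 8 neutrophil markers to 26.0 to 34.1 CPM in TuMon1, against 92.3 to 129 CPM in TuMon2. The part of these cells in the difference was not tested. The 9 B cell markers summed to 6.91 to 8.58 CPM in TuMon1 and 2.80 to 5.28 CPM in TuMon2.

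**Figure D1:**
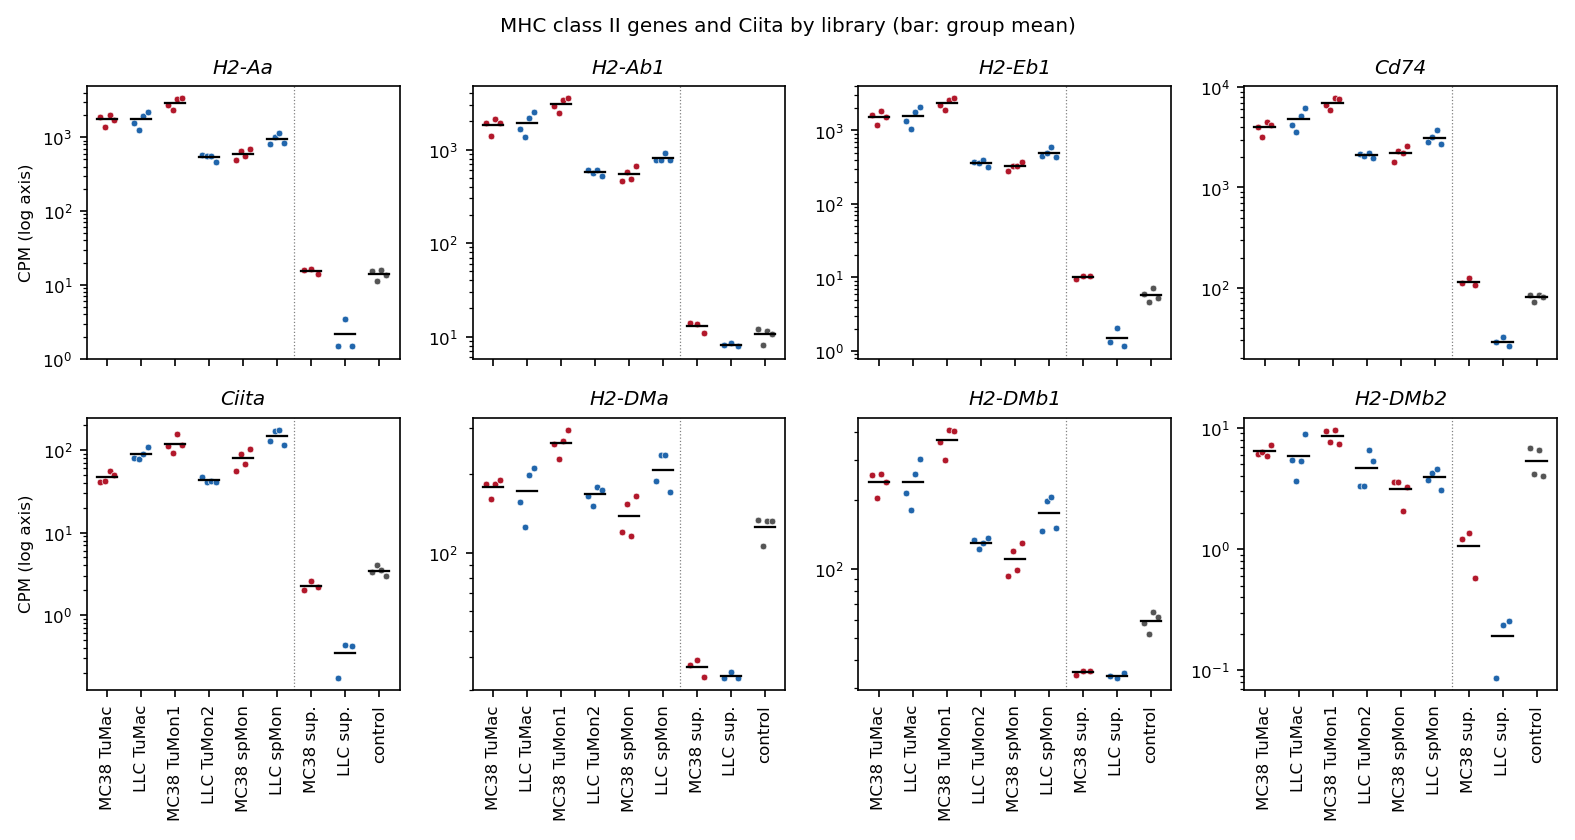
Level of each of the 7 class II genes and Ciita in all 34 libraries (log-scaled axis, CPM); each point is a library, each bar a group mean, red for MC38, blue for LLC and grey for the control culture, with a dotted line between mouse and cultured groups, which were scaled separately. By group mean, TuMon1 is highest for every gene but Ciita, for which LLC spleen monocytes lead at 147 CPM, and the LLC supernatant group is lowest for every gene.

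In MC38-bearing mice, the class II genes were higher in tumor monocytes than in spleen monocytes. H2-Aa had 2762, 2332, 3245 and 3349 CPM in TuMon1, as above, against 486, 646, 552 and 692 CPM in MC38 spleen monocytes. The tumor libraries were all above the spleen libraries, by 4.92-fold (log2 2.30 ± 0.17, adjusted p = 4.25e-11). H2-Ab1 (2.49 ± 0.17), H2-Eb1 (2.84 ± 0.18), Cd74 (1.65 ± 0.15) and H2-DMb1 (1.74 ± 0.15) rose too, with adjusted p of at most 1.11e-09. H2-DMa rose by a log2 difference of 0.92 ± 0.14 (adjusted p = 4.42e-06) and H2-DMb2 by 1.45 ± 0.25 (adjusted p = 1.45e-05). Ciita moved least: it had 111, 92.8, 156 and 116 CPM in TuMon1, against 55.1, 88.7, 68.3 and 104 CPM in MC38 spleen monocytes, ranges that overlap (0.59 ± 0.18, adjusted p = 0.00729). All 8 genes were thus called higher, where 33.5% of all genes were, with a median of 1.69 against -0.04 over all genes.

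The Ciita call was lost in 3 alternative analyses. With only the compared groups in the fit its log2 difference was 0.50 (adjusted p = 0.0632). Without MC38 spleen replicate 1 it was 0.41 (adjusted p = 0.0510), and without the libraries with foreign transcripts, which leaves 1 MC38 spleen library assumed to vary like the other groups, it was 0.18 (adjusted p = 0.570), while the other 7 genes were still called. Dendritic cell markers ran the other way from the class II genes: their sum was 61.6 to 73.7 CPM in TuMon1, against 152 to 187 CPM in MC38 spleen monocytes, with 2 of 12 called higher and 8 lower. B cell markers summed to 6.91 to 8.58 CPM in TuMon1, against 16.5 to 56.3 CPM in MC38 spleen monocytes, and neutrophil markers (8 genes) to 26.0 to 34.1 CPM in TuMon1, against 777 to 3402 CPM in MC38 spleen monocytes. Macrophage markers were higher along with the class II genes, at 9334 to 10213 CPM in TuMon1, against 1755 to 2158 CPM in MC38 spleen monocytes, and all 8 were called higher. The part of these cells in the difference was not tested.

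In LLC-bearing mice, the same genes were lower in tumor monocytes than in spleen monocytes. H2-Aa had 573, 547, 564 and 466 CPM in TuMon2, against 802, 993, 1129.5 and 823 CPM in LLC spleen monocytes. The transactivator showed the wider gap, with 47.7, 40.5, 42.5 and 40.5 CPM of Ciita in TuMon2, against 128, 169, 175 and 116 CPM in LLC spleen monocytes. Both genes were separated without overlap. Ciita fell by 1.78 ± 0.19 on the log2 scale (adjusted p = 4.94e-08) and H2-Aa fell by 0.80 ± 0.16 (adjusted p = 0.000182). Cd74 (-0.57 ± 0.15, adjusted p = 0.00167), H2-Ab1 (-0.49 ± 0.16, adjusted p = 0.0114), H2-Eb1 (-0.44 ± 0.17, adjusted p = 0.0273) and H2-DMb1 (-0.43 ± 0.15, adjusted p = 0.0134) fell by less. H2-DMa differed by -0.32 ± 0.14 (adjusted p = 0.0554) and H2-DMb2 by 0.24 ± 0.25 (adjusted p = 0.410), neither past the threshold.

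Of the 8 genes, 6 were thus called lower, where 34% of all genes were, with a median of -0.47 against -0.05 over all genes. Leaving out LLC spleen replicate 3 reduced the count to 4, with H2-Eb1 at -0.33 (adjusted p = 0.112) and H2-DMb1 at -0.34 (adjusted p = 0.0650). H2-DMb1 was also lost without LLC spleen replicate 2 (-0.37, adjusted p = 0.0527) and H2-Eb1 without TuMon2 replicate 4 (-0.41, adjusted p = 0.0703). H2-DMa passed the threshold in 12 alternative analyses and not in 21. Here the dendritic cell markers fell with the class II genes, with sums of 18.7 to 22.5 CPM in TuMon2, against 210 to 224 CPM in LLC spleen monocytes, and 9 of 12 called lower. B cell marker sums were 2.80 to 5.28 CPM in TuMon2 and 15.7 to 22.6 CPM in LLC spleen monocytes. Neutrophil markers were lower too, at 92.3 to 129 CPM in TuMon2, against 2951 to 4750 CPM in LLC spleen monocytes, with 7 of 8 called lower and 1 higher, and T and NK cell markers summed to 1.67 to 2.72 CPM in TuMon2, against 18.9 to 26.1 CPM. Macrophage markers summed to 4826 to 5393 CPM in TuMon2, against 1778 to 1941 CPM in LLC spleen monocytes. The part of such cells in the difference was not tested.

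The tumor-minus-spleen change of monocytes was tested directly between the 2 tumors. It was more positive with MC38 than with LLC for all 8 genes, where 23.8% of all genes were called in that direction, with a median of 2.30 against 0.04 over all genes. The difference of changes was 3.28 ± 0.24 for H2-Eb1, 3.10 ± 0.23 for H2-Aa and 2.98 ± 0.23 for H2-Ab1, with adjusted p of at most 2.01e-09. It was 2.37 ± 0.26 for Ciita (adjusted p = 5.08e-07), 2.22 ± 0.21 for Cd74 (adjusted p = 2.34e-08) and 2.16 ± 0.21 for H2-DMb1 (adjusted p = 2.77e-08). H2-DMa (1.23 ± 0.20, adjusted p = 3.39e-05) and H2-DMb2 (1.20 ± 0.35, adjusted p = 0.00753) differed least. Without the libraries with foreign transcripts 7 genes were called, and H2-DMb2 had 1.15 (adjusted p = 0.0695). The 2 changes come from mice with different tumors and share no library.

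Within MC38 tumors, macrophages carried less class II RNA than TuMon1. H2-Aa had 1886, 1376, 2016 and 1714 CPM in MC38 macrophages, against 2762, 2332, 3245 and 3349 CPM in TuMon1. Ciita had 40.6, 42.6, 55.5 and 50.4 CPM in MC38 macrophages, against 111, 92.8, 156 and 116 CPM in TuMon1. Neither gene's libraries overlapped. Ciita fell by 1.33 ± 0.19 on the log2 scale (adjusted p = 4.23e-06), Cd74 fell by 0.81 ± 0.15 (adjusted p = 6.53e-05), and H2-Aa and H2-Ab1 each fell by 0.74 ± 0.16 (adjusted p = 0.000559 and 0.000560). H2-Eb1 fell by 0.62 ± 0.17 (adjusted p = 0.00375), H2-DMb1 fell by 0.61 ± 0.14 (adjusted p = 0.00110) and H2-DMa fell by 0.55 ± 0.14 (adjusted p = 0.00216). H2-DMb2 differed by -0.41 ± 0.24 (adjusted p = 0.158). Of the 8 genes, 7 were called lower, where 27.9% of all genes were, with a median of -0.68 against -0.02 over all genes. Among all called genes 47.1% were higher, and 58.1% were with upper quartile scaling, under which 7 members were called too. Dendritic cell markers summed to 45.5 to 57.6 CPM in MC38 macrophages, against 61.6 to 73.7 CPM in TuMon1, and macrophage markers to 13415 to 14184 CPM in MC38 macrophages, against 9334 to 10213 CPM in TuMon1. Their part in the difference was not tested.

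Within LLC tumors, macrophages carried more class II RNA than TuMon2. H2-Aa had 1563, 1252, 1936 and 2189.6 CPM in LLC macrophages, against 573, 547, 564 and 466 CPM in TuMon2. Cd74 had 4231, 3549, 5202 and 6211 CPM in LLC macrophages, against 2174, 2081, 2189.6 and 1961 CPM in TuMon2. Ciita had 80.6, 78.5, 89.2 and 108 CPM in LLC macrophages, against 47.7, 40.5, 42.5 and 40.5 CPM in TuMon2. All 3 were separated without overlap. H2-Eb1 rose most, 4.34-fold (log2 2.12 ± 0.17, adjusted p = 1.40e-09), followed by H2-Ab1 (1.75 ± 0.17, adjusted p = 1.11e-08), H2-Aa (1.69 ± 0.17, adjusted p = 1.90e-08), Cd74 (1.19 ± 0.15, adjusted p = 4.62e-07), Ciita (1.06 ± 0.19, adjusted p = 6.86e-05) and H2-DMb1 (0.88 ± 0.15, adjusted p = 2.15e-05).

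The alpha chain of H2-DM did not pass the threshold: H2-DMa averaged 173 ± 38.9 CPM in LLC macrophages and 167 ± 12.2 CPM in TuMon2, a log2 difference of 0.05 with a 95% interval of -0.23 to 0.33 (adjusted p = 0.788). H2-DMb2 differed by 0.32 ± 0.25 (adjusted p = 0.274). Of the 8 genes, 6 were called higher, where 29.2% of all genes were, with a median of 1.12 against 0.06 over all genes. Among all called genes 52.6% were higher, and 66.1% were with upper quartile scaling, under which 6 members were called too. Dendritic cell markers summed to 22.7 to 35.8 CPM in LLC macrophages, against 18.7 to 22.5 CPM in TuMon2, with 4 of 12 called higher and 1 lower. Macrophage markers summed to 8785 to 10003 CPM in LLC macrophages, against 4826 to 5393 CPM in TuMon2, with 6 of 8 called higher and 2 lower. Their part in the difference was not tested.

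The macrophage-minus-monocyte change differed between the tumors for 7 of 8 genes, more negative with MC38 than with LLC, where 8.27% of all genes were called in that direction. The difference of changes was -2.74 ± 0.24 for H2-Eb1, -2.49 ± 0.23 for H2-Ab1, -2.43 ± 0.23 for H2-Aa, -2.39 ± 0.26 for Ciita and -2.0 ± 0.21 for Cd74, with adjusted p of at most 2.91e-06. H2-DMb1 had -1.49 ± 0.21 (adjusted p = 2.56e-05). H2-DMa had -0.60 ± 0.20 (adjusted p = 0.0456), a call that was lost in 20 alternative analyses and kept in 13, with adjusted p from 0.00966 to 0.162 over all of them. H2-DMb2 had -0.73 ± 0.34 (adjusted p = 0.166). The median was -2.20, against -0.06 over all genes.

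**Figure D2:**
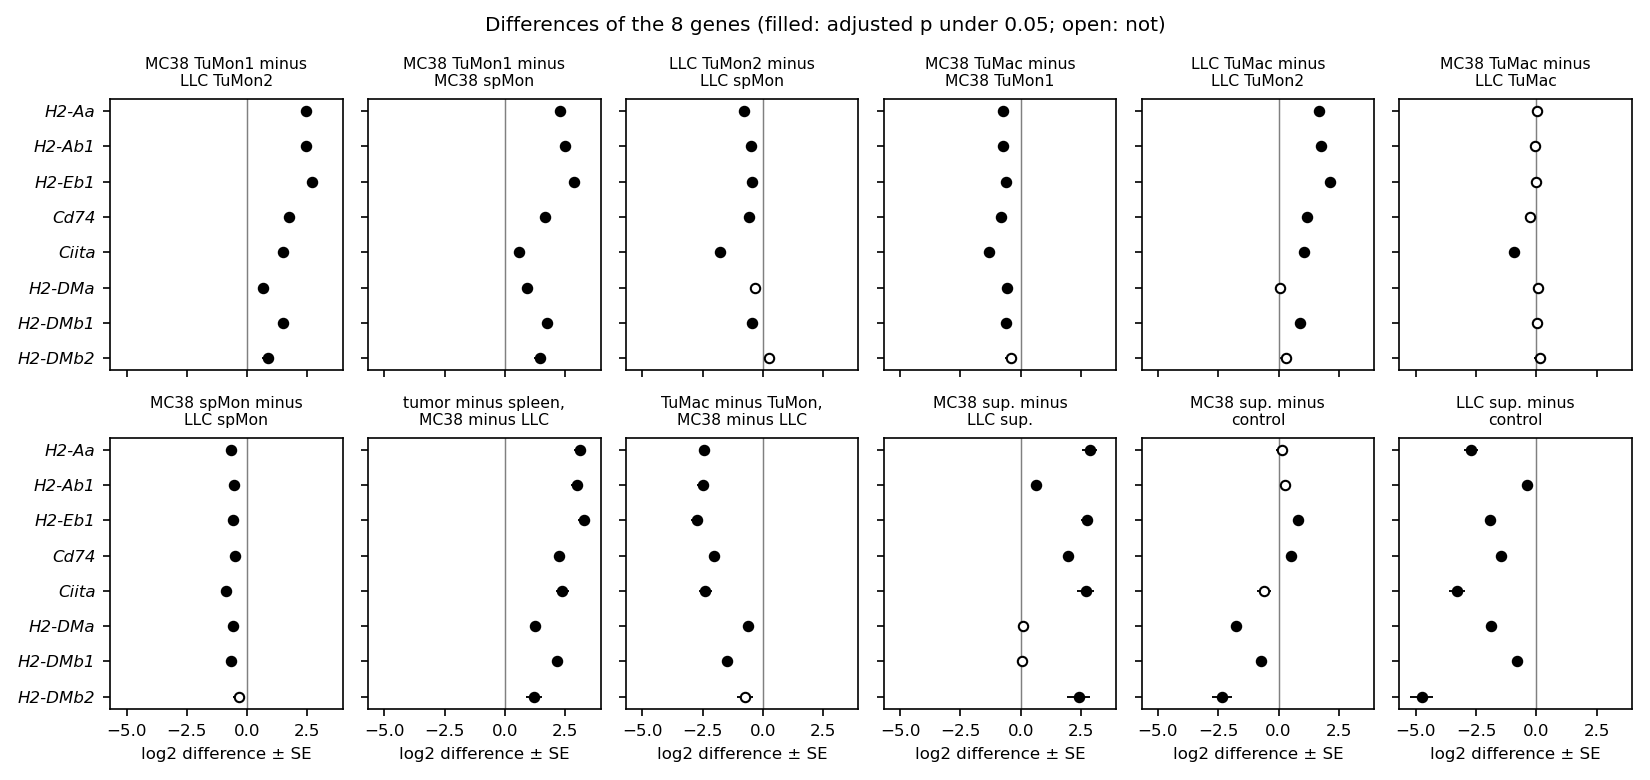
Log2 difference (first-named group minus the other) of the 7 class II genes and Ciita in each of the 12 comparisons, with bars of 1 SE; filled points passed an adjusted p of 0.05. The 8 genes lie right of 0 for TuMon1 against TuMon2 (0.65 to 2.70) and for TuMon1 against MC38 spleen monocytes (0.59 to 2.84), whereas between the 2 kinds of macrophages Ciita is the 1 filled point, at -0.91.

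Macrophages of the 2 tumors had class II levels within the spread of their libraries, but not Ciita levels. H2-Aa had 1886, 1376, 2016 and 1714 CPM in MC38 macrophages, against 1563, 1252, 1936 and 2189.6 CPM in LLC macrophages, which overlap throughout. The log2 difference was 0.01 with a 95% interval of -0.31 to 0.33 (adjusted p = 0.964), and that of H2-Ab1 was -0.07 with an interval of -0.38 to 0.25 (adjusted p = 0.767). Ciita had 40.6, 42.6, 55.5 and 50.4 CPM in MC38 macrophages, against 80.6, 78.5, 89.2 and 108 CPM in LLC macrophages, with no overlap. It was 1.88-fold higher in LLC macrophages, a log2 difference of -0.91 ± 0.19 (adjusted p = 0.000368). Ciita was the 1 gene called of the 8, where 22.9% of all genes were called lower. Without LLC macrophage replicate 2, Cd74 was called as well (-0.39, adjusted p = 0.0329), against -0.27 ± 0.15 with it (adjusted p = 0.134). B cell markers summed to 28.9 to 31.8 CPM in MC38 macrophages, of which Cd79b made 29.7 CPM, and to 2.90 to 4.97 CPM in LLC macrophages. Dendritic cell markers summed to 45.5 to 57.6 CPM in MC38 macrophages and 22.7 to 35.8 CPM in LLC macrophages. Macrophage markers summed to 13415 to 14184 CPM in MC38 macrophages and 8785 to 10003 CPM in LLC macrophages. All 3 sums were higher in MC38 macrophages, and the part of these cells in the differences was not tested.

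Spleen monocytes had less class II RNA in mice with MC38 than with LLC tumors. H2-Aa had 486, 646, 552 and 692 CPM in MC38 spleen monocytes, against 802, 993, 1129.5 and 823 CPM in LLC spleen monocytes. Ciita had 55.1, 88.7, 68.3 and 104 CPM in MC38 spleen monocytes, against 128, 169, 175 and 116 CPM in LLC spleen monocytes. Neither gene overlapped. Ciita fell by 0.90 ± 0.18 on the log2 scale (adjusted p = 0.000877) and H2-Aa fell by 0.66 ± 0.16 (adjusted p = 0.00388). In all 7 of 8 genes were called lower, with log2 differences of -0.49 (Cd74) to -0.90 (Ciita), where 14% of all genes were, and the median was -0.58 against -0.07 over all genes, and H2-DMb2 differed by -0.34 ± 0.25 (adjusted p = 0.333).

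Of the 4 MC38 spleen libraries, 3 are among those with foreign transcripts. Without these 3 none of the 8 was called by edgeR, and the differences were -0.43 for H2-Aa (adjusted p = 0.732), -0.49 for Ciita (adjusted p = 0.636) and -0.26 for Cd74 (adjusted p = 0.856), with 1 MC38 library left. That library, replicate 4, had 692 CPM of H2-Aa, below the lowest LLC spleen library, and 104 CPM of Ciita, also below. Cd74 was lost without LLC spleen replicate 3 (adjusted p = 0.0537) and H2-Ab1 without MC38 spleen replicate 3 (-0.50, adjusted p = 0.0551). Of all genes called in this comparison 50.7% were higher, 62.1% with relative log expression scaling and 66.8% with upper quartile scaling. Under both scalings 7 members were called. Dendritic cell markers were lower along with the class II genes, with sums of 152 to 187 CPM in MC38 spleen monocytes, against 210 to 224 CPM in LLC spleen monocytes, and 3 of 12 were called lower and 0 higher. The 8 neutrophil markers summed to 787, 943, 777 and 3402 CPM in MC38 spleen replicates 1 to 4, against 2951 to 4750 CPM in LLC spleen monocytes, with 6 called lower. The 10 T and NK cell markers summed to 7.08 to 7.73 CPM in MC38 spleen monocytes, against 18.9 to 26.1 CPM in LLC spleen monocytes. B cell markers summed to 42.4, 38.9, 56.3 and 16.5 CPM in MC38 spleen replicates 1 to 4, against 15.7 to 22.6 CPM in LLC spleen monocytes. The part of these cells in the difference was not tested.

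In culture, the summed RNA of the 8 genes was low. They made 215 to 244 CPM with MC38 supernatant, 105 to 115 CPM with LLC supernatant and 262 to 325 CPM in control. TuMon1 had 13127 to 18106 CPM, and every mouse library had at least 3317 CPM. H2-DMa and H2-DMb2 were less far apart. H2-DMa averaged 126 CPM in control, against 138 CPM in MC38 spleen monocytes. H2-DMb2 averaged 5.37 CPM in control, against 4.65 CPM in TuMon2. The other genes had lower means in every cultured group than in any mouse group. At these low summed levels, cells with MC38 supernatant still exceeded those with LLC supernatant. H2-Aa had 15.9, 16.6 and 14.1 CPM with MC38 supernatant, against 1.47, 3.44 and 1.49 CPM with LLC supernatant. Cd74 had 111, 124 and 107 CPM with MC38 supernatant, against 28.7, 32.4 and 26.1 CPM with LLC supernatant. Ciita had 2.04, 2.58 and 2.19 CPM with MC38 supernatant, against 0.173, 0.436 and 0.427 CPM with LLC supernatant. These 3 genes were fully separated, although the LLC supernatant values of Ciita rest on 4 to 11 counts per library.

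H2-Aa was 7.25-fold higher with MC38 than with LLC supernatant (log2 2.86 ± 0.31, adjusted p = 7.17e-05). H2-Eb1 (2.73 ± 0.24, adjusted p = 1.68e-05), Ciita (2.69 ± 0.35, adjusted p = 0.000194), H2-DMb2 (2.40 ± 0.47, adjusted p = 0.00250) and Cd74 (1.98 ± 0.10, adjusted p = 3.50e-07) rose similarly, and H2-Ab1 by only 0.64 ± 0.16 (adjusted p = 0.00867). H2-DMa (0.11, 95% interval -0.07 to 0.30, adjusted p = 0.371) and H2-DMb1 (0.05 ± 0.08, adjusted p = 0.666) did not pass the threshold. In all 6 of 8 genes were called higher, where 21.6% of all genes were, with a median of 2.19 against 0.05 over all genes. Leaving out LLC supernatant replicate 3 lost H2-Ab1 (0.61, adjusted p = 0.0507), and leaving out the libraries with foreign transcripts added H2-DMa (0.19, adjusted p = 0.00565). Dendritic cell markers summed to 11.1 to 12.8 CPM with MC38 supernatant, against 3.07 to 4.0 CPM with LLC supernatant, and their part was not tested.

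Set against control culture, MC38 supernatant split the 8 genes. H2-Eb1 averaged 10.1 ± 0.564 CPM with MC38 supernatant (n = 3) and 5.75 ± 1.06 CPM in control (n = 4), and Cd74 114 ± 9.02 CPM with MC38 supernatant and 80.4 ± 6.03 CPM in control. Both rose, by 0.81 ± 0.21 (adjusted p = 0.00593) and 0.51 ± 0.09 (adjusted p = 0.000535). The H2-DM chains fell: H2-DMa had 37.3, 38.9 and 33.5 CPM with MC38 supernatant, against 133, 106, 132 and 132 CPM in control (-1.78 ± 0.09, adjusted p = 4.70e-08), H2-DMb1 had -0.74 ± 0.07 (adjusted p = 8.03e-06) and H2-DMb2 -2.35 ± 0.41 (adjusted p = 0.000515). Ciita had 2.04, 2.58 and 2.19 CPM with MC38 supernatant, against 3.29, 4.03, 3.50 and 2.94 CPM in control, which do not overlap but gave -0.60 ± 0.30 (adjusted p = 0.100). H2-Aa differed by 0.14 (95% interval -0.38 to 0.66, adjusted p = 0.649) and H2-Ab1 by 0.27 ± 0.15 (adjusted p = 0.129). Thus 2 genes were called higher and 3 lower, where 35.4% and 32.5% of all genes were. These counts do not set the 8 genes apart from genes in general. H2-Ab1 also passed without MC38 supernatant replicate 3 (0.38, adjusted p = 0.0415) or without all libraries with foreign transcripts (0.29, adjusted p = 0.0126), and Ciita passed in DESeq2 (-0.60, adjusted p = 0.0394).

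With LLC supernatant all 8 genes were lower than in control, where 36.1% of all genes were called lower. H2-Aa had 1.47, 3.44 and 1.49 CPM with LLC supernatant, against 15.3, 11.2, 16.0 and 13.8 CPM in control. Ciita had 0.173, 0.436 and 0.427 CPM with LLC supernatant, against 3.29, 4.03, 3.50 and 2.94 CPM in control. Both were far apart, H2-Aa by 6.56-fold (log2 -2.71 ± 0.30, adjusted p = 1.98e-05) and Ciita by 9.79-fold (-3.29 ± 0.35, adjusted p = 1.10e-05). H2-DMb2 fell by 4.75 ± 0.48 (adjusted p = 8.65e-06), with 2 to 6 counts per library with LLC supernatant and 59 to 185 in control. H2-Eb1 (-1.92 ± 0.23), H2-DMa (-1.89 ± 0.09), Cd74 (-1.47 ± 0.09) and H2-DMb1 (-0.79 ± 0.07) fell with adjusted p of at most 3.02e-05. H2-Ab1 was the least changed, with 8.22, 8.55 and 7.86 CPM with LLC supernatant, against 12.1, 8.13, 11.6 and 10.7 CPM in control (-0.38 ± 0.15, adjusted p = 0.0431). These groups overlap only through control replicate 2, at 8.13 CPM, which is among the libraries with foreign transcripts. The H2-Ab1 call was lost in 13 alternative analyses and kept in 6, with adjusted p from 0.000162 to 0.158. The median was -1.91, against -0.07 over all genes. Dendritic cell markers summed to 3.07 to 4.0 CPM with LLC supernatant, against 11.1 to 12.8 CPM with MC38 supernatant and 168 to 188 CPM in control. Macrophage markers summed to 7641 to 7833 CPM with LLC supernatant, against 6553 to 7376 CPM with MC38 supernatant and 654 to 800.1 CPM in control. The part of these cells in the fall was not tested. The comparisons of either supernatant with control share the control libraries.

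The balance between the 8 genes also differed between groups. Per kilobase of annotated exon, Cd74 was the most abundant in each of the 6 mouse groups, with mean levels of 1484 to 4925 CPM per kb, followed by the I-A chains, H2-Eb1, the H2-DM chains H2-DMb1 and H2-DMa, and then Ciita and H2-DMb2. In control culture the order was Cd74 at 56.8 CPM per kb, H2-DMa at 47.1, H2-DMb1 at 42.0 and H2-Aa at 12.5. Exon length was the union over annotated transcripts of a gene, and orders and shares between genes depend on that choice. By CPM without lengths, H2-DMa led in control at 126 CPM, above Cd74 at 80.4 CPM. With LLC supernatant H2-DMb1 led at 24.3 CPM per kb, above Cd74 at 20.5. H2-DMa per kb was 4.38% of H2-Aa in MC38 macrophages, 4.21% in LLC macrophages, 3.81% in TuMon1, 13.2% in TuMon2, 9.85% in MC38 spleen monocytes and 9.37% in LLC spleen monocytes. In culture the same share was 99.4% with MC38 supernatant, 774% with LLC supernatant and 380.1% in control. H2-DMa was the gene of the 8 with the smallest range, 0.93 log2 units between the lowest and highest mouse group, against 2.83 for H2-Eb1, 2.43 for H2-Aa and 1.76 for Ciita.

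The transactivator did not follow the order of H2-Aa. Ciita per 1000 of H2-Aa, both per kb, averaged 3.75 ± 0.567 in MC38 macrophages and 7.19 ± 0.992 in LLC macrophages (SD, n = 4 each), with libraries of 2.96 to 4.25 against 6.32 to 8.6. It averaged 5.57 ± 0.760 in TuMon1 and 11 ± 0.845 in TuMon2, with libraries of 4.74 to 6.58 against 10.1 to 11.9. Neither pair of ranges overlapped. Spleen monocytes had the highest mouse values, 18.0 ± 2.21 with MC38 and 21.4 ± 1.67 with LLC tumors, and these overlapped. By level, the Ciita order was LLC spleen monocytes (147 ± 29.2 CPM), TuMon1 (119 ± 26.5), LLC macrophages (89.0 ± 13.3), MC38 spleen monocytes (79.0 ± 21.7), MC38 macrophages (47.3 ± 6.91) and TuMon2 (42.8 ± 3.42), each overlapping the next. Below them, with no overlap, came control culture (3.44 ± 0.457), MC38 supernatant (2.27 ± 0.279) and LLC supernatant (0.345 ± 0.149). H2-Aa was ordered TuMon1, MC38 macrophages, LLC macrophages, LLC spleen monocytes, MC38 spleen monocytes, TuMon2, MC38 supernatant, control and LLC supernatant. In that order the libraries of both macrophage groups overlapped, as did those of MC38 spleen monocytes and TuMon2, and those of MC38 supernatant and control.

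**Figure D3:**
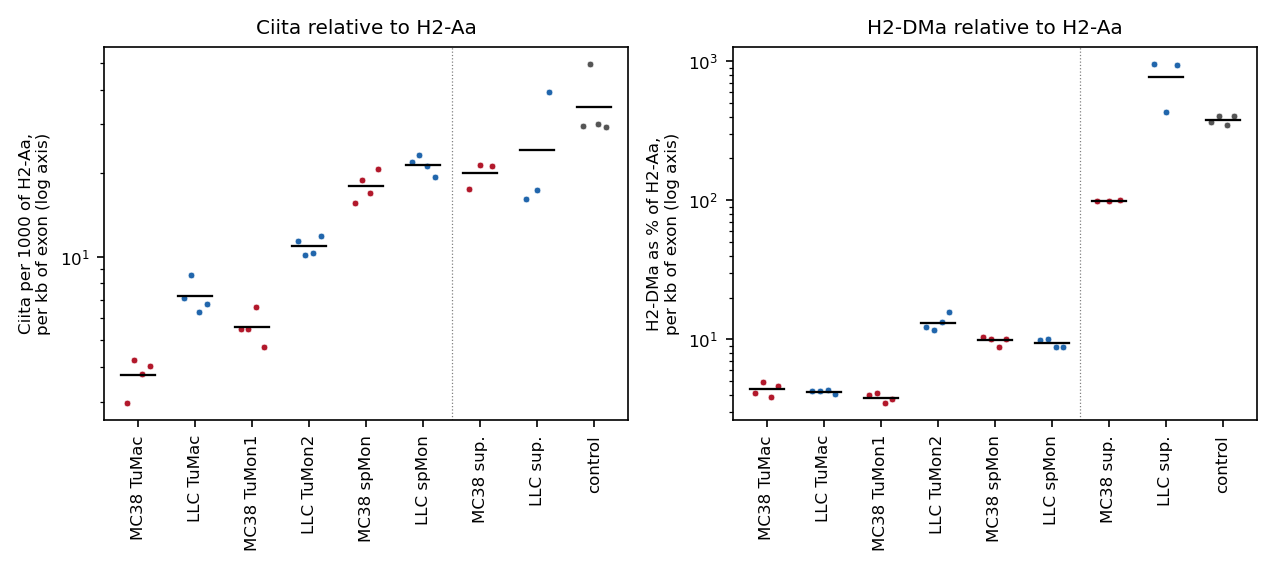
Per library, Ciita per 1000 of H2-Aa and H2-DMa as a percent of H2-Aa, both from CPM per kb of exon (vertical axes); points are libraries and bars group means, red for MC38, blue for LLC and grey for control. Among mouse groups the Ciita ratio is lowest in MC38 macrophages (2.96 to 4.25) and highest in LLC spleen monocytes (19.3 to 23.3).

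The I-A chains kept close proportions in mouse cells: H2-Ab1 over H2-Aa per kb averaged 0.980 in MC38 macrophages, 1.03 in LLC macrophages, 0.980 in TuMon1, 0.996 in TuMon2, 0.856 in MC38 spleen monocytes and 0.812 in LLC spleen monocytes. With LLC supernatant it was 4.13 ± 1.59, with libraries of 2.31 to 5.2, against 0.765 with MC38 supernatant and 0.703 in control, on 34 to 87 H2-Aa counts per LLC supernatant library. H2-DMb1 and H2-DMb2 are near copies: their longest annotated transcripts were 87.7% identical over 1144 aligned bases, with an unbroken identical run of 221 bases. Of 1355 windows of 50 bases in the H2-DMb1 transcript, 26.6% occurred unchanged in that of H2-DMb2. Both genes had non-whole estimated counts in all 34 libraries. Non-whole counts also occurred for Cd74 in 31 libraries, for H2-Ab1 and H2-Eb1 in 30 each, for Ciita in 7 and for H2-Aa in 2, and their counts carry that uncertainty too. How the counting split reads between H2-DMb1 and H2-DMb2 is uncertain, and H2-DMb2, at 0.563% (LLC supernatant) to 8.30% (control) of the pair's counts, is the less certain of them. With the pair summed into 1 row, the calls of the remaining 7 rows were 7 for TuMon1 against TuMon2, 7 for TuMon1 against MC38 spleen monocytes and 6 for TuMon2 against LLC spleen monocytes.

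Another 3 class II genes passed the filter in mouse libraries, all at low levels. H2-Ob, the beta chain of the H2-DM inhibitor H2-O, averaged 9.87 ± 1.45 CPM in LLC macrophages and 1.54 ± 0.397 CPM in TuMon2, a log2 difference of 2.67 ± 0.23 (adjusted p = 1.01e-09). It averaged 3.25 ± 0.868 CPM in MC38 macrophages, a log2 difference of -1.61 ± 0.21 from LLC macrophages (adjusted p = 8.88e-07). H2-Eb2, another I-E beta chain gene, averaged 1.08 CPM in TuMon1, against 0.0569 CPM in TuMon2, where 2 of 4 libraries had none, against 2.56 CPM in MC38 spleen monocytes and 3.59 CPM in LLC spleen monocytes. H2-Oa, the H2-O alpha chain, stayed at or below 2.96 CPM in every group mean. All 3 were called higher in TuMon1 than in TuMon2 and all 3 lower in TuMon2 than in LLC spleen monocytes. H2-Ea did not pass the filter. Only RNA was measured, so levels of H2-Eb1 do not show whether I-E protein was made.

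Upstream of Ciita, 13 of 14 listed genes were tested, with Ifng, the interferon gamma gene itself, below the filter. Irf1, a transcription factor that binds the inducible Ciita promoter, averaged 622 ± 96.6 CPM in TuMon1, against 270.2 ± 42.6 CPM in TuMon2 (1.20 ± 0.17, adjusted p = 3.85e-06). In macrophages it differed in the opposite direction to Ciita, with 370.2 ± 29.9 CPM in MC38 macrophages and 138 ± 40.0 CPM in LLC macrophages (1.42 ± 0.17, adjusted p = 3.60e-07). Within LLC tumors, where Ciita was higher in macrophages than in TuMon2, Irf1 had -0.97 ± 0.17 (adjusted p = 4.36e-05). Irf4, a lymphoid and dendritic cell regulator, averaged 3.43 CPM in MC38 macrophages and 14.5 CPM in LLC macrophages, a log2 difference of -2.06 ± 0.16 (adjusted p = 9.35e-11), and 43.5 CPM in MC38 spleen monocytes and 60.2 CPM in LLC spleen monocytes.

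Over the 13 inputs, 6 genes were higher and 3 lower in TuMon1 than in TuMon2, where 26.8% of all genes were higher and 22.1% lower. In MC38 macrophages 0 were higher and 11 lower than in TuMon1 (24.8% and 27.9% of all genes), and in LLC macrophages 1 was higher and 10 lower than in TuMon2 (29.2% and 26.3% of all genes). Between MC38 and LLC macrophages 6 were higher and 3 lower (22.4% and 22.9% of all genes). In culture 10 were higher and 0 lower with MC38 than with LLC supernatant (21.6% and 18.5% of all genes). The medians in these 5 comparisons were 0.10, -0.49, -0.59, 0.21 and 0.59, where all-gene medians lay between -0.02 and 0.06. Ifngr1, the ligand-binding chain of the interferon gamma receptor, fell in TuMon1 relative to TuMon2 (-0.67 ± 0.09, adjusted p = 9.79e-07), and Ifngr2, the signalling chain, rose (0.45 ± 0.07, adjusted p = 2.33e-05).

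**Figure D4:**
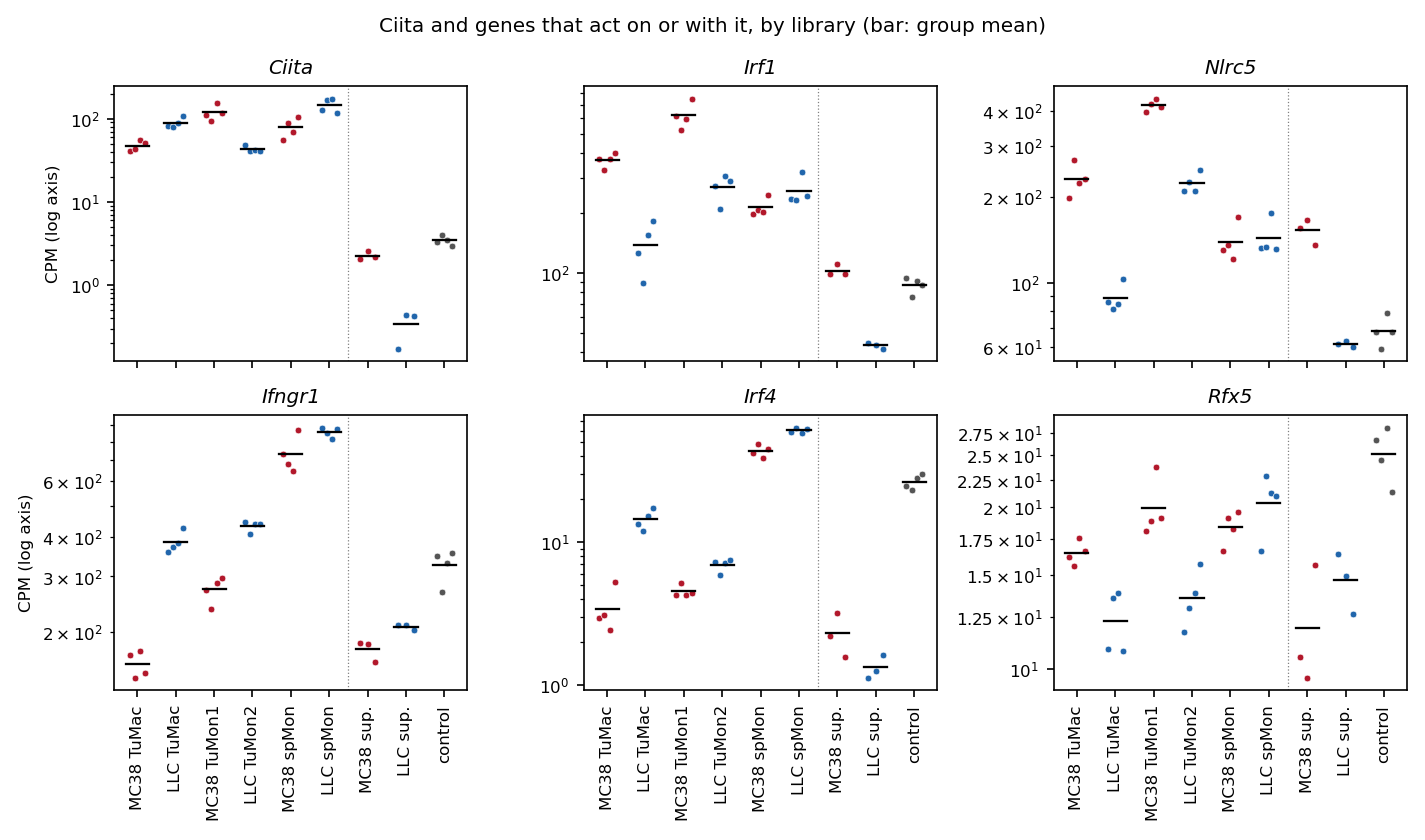
Levels of Ciita, Irf1, Nlrc5, Ifngr1, Irf4 and Rfx5 in all 34 libraries (log-scaled axis, CPM), drawn as in the plot of the class II genes by library. Irf1 and Nlrc5 are higher in MC38 than in LLC macrophages (means of 370.2 and 138 CPM for Irf1), whereas Ciita and Irf4 are lower (47.3 and 89.0 CPM for Ciita).

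Another list of 13 genes held the enhanceosome, other CIITA partners and Nlrc5. Of these 13, 3 were higher and 6 lower in TuMon1 than in TuMon2, with a median of -0.17. Over all genes 26.8% were higher and 22.1% lower. In LLC macrophages against TuMon2, 0 were higher and 10 lower, with a median of -0.47, where 29.2% of all genes were higher and 26.3% lower. Rfx5, a subunit of the RFX complex, rose in TuMon1 over TuMon2 (0.55 ± 0.11, adjusted p = 0.000301) and fell in TuMon2 relative to LLC spleen monocytes (-0.59 ± 0.11, adjusted p = 8.62e-05). Nlrc5, the transactivator of MHC class I, averaged 231 ± 29.0 CPM in MC38 macrophages and 88.9 ± 9.73 CPM in LLC macrophages (1.37 ± 0.11, adjusted p = 2.72e-10), opposite in sign to Ciita. In TuMon1 against TuMon2 it was higher with Ciita (0.90 ± 0.11, adjusted p = 3.13e-07).

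Of 12 genes of peptide loading and turnover, 8 were higher and 0 lower in TuMon1 than in TuMon2, with a median of 0.50, where 26.8% and 22.1% of all genes were. Ctss, the cathepsin that cleaves the invariant chain, averaged 5768 ± 186 CPM in TuMon1, against 2902 ± 66.2 CPM in TuMon2 (0.99 ± 0.07, adjusted p = 8.07e-11). With MC38 supernatant 9 of 12 were higher and 3 lower than in control, with a median of 2.71, where 35.4% and 32.5% of all genes were. With LLC supernatant 7 were higher and 4 lower than in control, with a median of 2.29, where 32.3% and 36.1% of all genes were. Ctsl, another cathepsin, averaged 4120 ± 318 CPM with MC38 supernatant, 1869 ± 10.3 CPM with LLC supernatant and 29.0 ± 2.85 CPM in control. Marchf1, the ubiquitin ligase that turns over surface class II, was lower with both supernatants than in control: it fell by 0.86 ± 0.13 on the log2 scale with MC38 (adjusted p = 0.000162) and fell by 1.96 ± 0.14 with LLC (adjusted p = 4.20e-07).

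**Figure D5:**
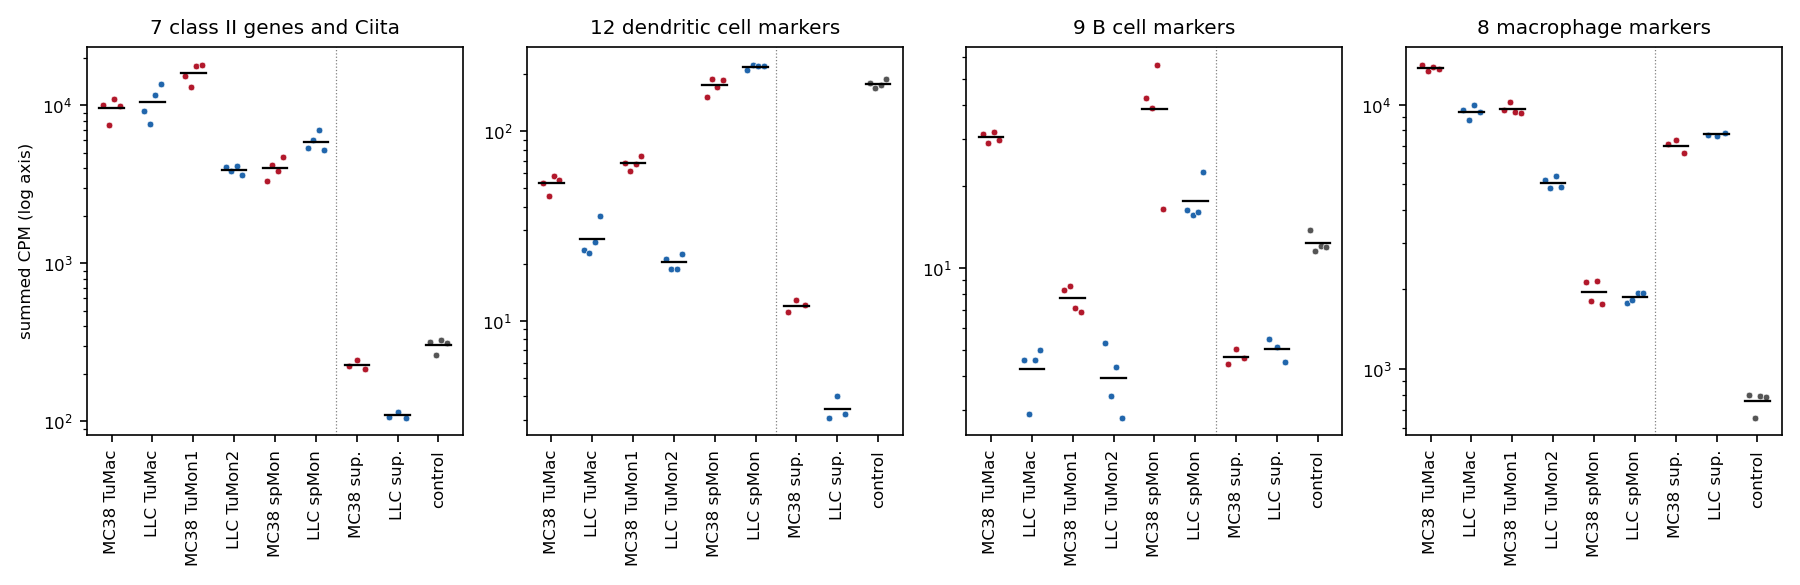
Summed level (log-scaled axis, CPM) of the 7 class II genes and Ciita, 12 dendritic cell markers, 9 B cell markers and 8 macrophage markers in every library, with bars at group means and colors as in the plot of the class II genes by library. Dendritic cell markers are highest in LLC spleen monocytes (210 to 224 CPM), where the 8 genes sum to 5197 to 6976 CPM, and lie at 61.6 to 73.7 CPM in TuMon1, where the 8 genes sum to 13127 to 18106 CPM.

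Genes whose pattern over the 9 group means lay nearest the mean profile of the 8 were ranked by the root mean square difference of centred log2 levels among 9576 candidates, whose median was 2.53. Rasgrp1, a Ras activator, was nearest at 0.81, followed by Pdgfb at 0.89, Pmaip1 at 0.90 and Nfkbiz at 0.90. Rasgrp1 averaged 37.3 CPM in MC38 macrophages, 44.3 in LLC macrophages, 68.8 in TuMon1, 36.9 in TuMon2, 26.9 in MC38 spleen monocytes and 38.9 in LLC spleen monocytes, against 2.09 CPM with MC38 supernatant, 0.212 with LLC supernatant and 0.429 in control. Its mouse group means were all above its cultured group means. Over the 6 mouse groups alone the nearest were Nlrp1b at 0.25, Sdhaf4 at 0.26, Cep43 at 0.29 and Espl1 at 0.30, with a median of 0.72 among candidates. Nearest H2-Aa alone over 9 groups were Rasgrp1 at 0.95 and Itgax, the CD11c integrin chain, at 0.96. Nearest Ciita alone were Rasgrp1 at 0.84 and Nr4a1 at 1.07. A small distance over 9 groups did not mean the same order among mouse groups. Pdgfb was highest in LLC macrophages, at 164 CPM, against 47.9 CPM in TuMon1. Nr4a1 was highest in TuMon2, at 1729 CPM, where Ciita was lowest of the mouse groups, at 42.8 CPM. No gene named for the 8 over 9 groups was among those named over the mouse groups.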

How the data were processed

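RNA of 34 sorted or cultured mouse libraries had been made into stranded mRNA libraries, per the labels' protocols. The deposited table holds expected counts (estimated counts, 14.6% of values not whole) per Entrez gene made by the authors. CASAVA 1.8.2 and GRCm38/mm10 are named in the submitters' processing notes, and no aligner or counter is given in the sources used here. If reads were shared between near copies by estimate, counts of H2-DMb1 and H2-DMb2 depend on that split. Groups came from the titles, and every sample column was used.

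Estimated counts were rounded, which moved no library total by more than 0.000368%, and the test meant for counts was kept. Of the identifiers, 24375 matched RefSeq symbols and 100 did not. edgeR 4.0.16 (R 4.3.3) kept genes with filterByExpr, scaled by TMM, and ran a robust quasi-likelihood test with Benjamini-Hochberg adjustment at 0.05, separately for the 24 mouse and 10 cultured libraries (12 comparisons in all). SE is the log2 difference divided by the square root of F, and 95% intervals are 1.96 SE to each side. Fitted log2 differences of genes with few counts depend on edgeR's prior count. The test was checked on simulated counts. DESeq2 1.42.0, other scalings, filters and a replicate block, and leaving out each library, were alternatives. Exon lengths came from GENCODE and promoters from RefSeq, both on GRCm38, and transcripts were aligned with Biopython 1.88.

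The members and gene lists were chosen with earlier results of these data known. All 8 members are named throughout. From other lists, the 4 genes of smallest adjusted p per comparison and a fixed set of regulators could be named, and patterns were matched among genes reaching 10 CPM in a group. Lists are described by counts and medians, without a list test. Where libraries of named genes are said not to overlap, the share of all genes that also did not overlap was not counted. Some genes of the lists are not reported here by name. Replicates of each group differed by more than sampling noise.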

Additional observations from a re-analysis of the deposited data

Results flagged for a closer look

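The tumor-minus-spleen change of monocytes differed between MC38 and LLC mice in a direct test for all 8 genes. The log2 difference of changes was 3.10 for H2-Aa, 2.98 for H2-Ab1, 3.28 for H2-Eb1, 2.22 for Cd74, 2.37 for Ciita, 1.23 for H2-DMa, 2.16 for H2-DMb1 and 1.20 for H2-DMb2. The macrophage-minus-monocyte change differed for 7 genes, at -2.43 for H2-Aa, -2.49 for H2-Ab1, -2.74 for H2-Eb1, -2.0 for Cd74, -2.39 for Ciita, -0.60 for H2-DMa and -1.49 for H2-DMb1.

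Single libraries lay far from the rest of their group for 2 of 56 gene and group sets of 4 libraries, and chance gives about 1 in 20. H2-Ab1 was high in LLC spleen monocyte replicate 3, at 908 CPM, with a gap to the next library of 0.968 of the group's range. H2-DMa was low in control culture replicate 2, at 106 CPM, with a gap of 0.971 of the range, and that library is among those with foreign transcripts.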

How the results depend on the processing

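Of the counts of members called, 2 moved by more than 1.5 times under any alternative. Without LLC macrophage replicate 2, 2 genes were called between MC38 and LLC macrophages (1 to 2 when each library was left out). Without the libraries with foreign transcripts, 0 were called between MC38 and LLC spleen monocytes, with 1 MC38 library left. That setting also turned calls of listed genes: between the spleens Ctsl had -0.37 (adjusted p = 0.743), Marchf8 -0.12 (adjusted p = 0.909) and Nfya 0.0486 (adjusted p = 0.959), Ctsl had 0.14 (adjusted p = 0.754) in the difference of tumor-minus-spleen changes, and Spi1 had -0.0138 (adjusted p = 0.937) in TuMon1 against MC38 spleen monocytes. The cause was not tested. When each library was left out in turn, the count of members called was 8 to 8 for TuMon1 against TuMon2, 7 to 8 for TuMon1 against spleen, 4 to 7 for TuMon2 against spleen, 5 to 6 between the supernatants and 7 to 8 for LLC supernatant against control.

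Upper quartile scaling moved all-gene medians to -0.18 for TuMon1 against spleen, 0.09 for MC38 macrophages against TuMon1 and 0.21 for LLC macrophages against TuMon2. They had been -0.04, -0.02 and 0.06. That scaling reversed the direction of no member called in the main fit. Signs of members not called were not followed. H2-DMa was added to the calls for TuMon2 against spleen. The labels do not say whether same-numbered libraries pair. Not every such pair deviated together, which cannot exclude pairing. Over the genes tested, deviations of macrophages and TuMon1 of MC38 tumors correlated at 0.12, 0.07, -0.01 and 0.15 for replicates 1 to 4. For macrophages and TuMon2 of LLC tumors the values were -0.03, 0.15, 0.06 and 0.05. The main tests treated libraries as unpaired. With a replicate block, 8 members were called for TuMon1 against TuMon2, 7 for TuMon2 against LLC spleen monocytes and 5 for MC38 supernatant against control. Depth limits Ciita and H2-DMb2 with LLC supernatant, at 4 to 11 and 2 to 6 counts per library.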
